A study of Mus musculus with 7 samples.

Results

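The constitutive proteasome subunits are the genes whose products build the standard proteasome of every cell. They were taken by symbol: a gene was counted when 1 of its probe sets carried a single platform symbol made of Psma, Psmb, Psmc or Psmd and a digit, and the interferon-inducible Psmb8, Psmb9 and Psmb10 were left out. This gave 36 genes of the 12393 genes with a single-symbol probe set, 15 of the 20S core (Psma and Psmb) and 21 of the 19S cap (Psmc and Psmd). Each gene was represented by 1 probe set, that with the highest mean signal over the 7 arrays. The symbol also took in Psmc3ip, a partner of recombinases that is no proteasome subunit, and Psmd5, Psmd9 and Psmd10, chaperones that help to assemble the cap and leave it afterwards. All 36 gene IDs were found in RefSeq under the same symbol, spread over 16 chromosomes with at most 7 on 1 chromosome.

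The proteasome degrades proteins that carry ubiquitin chains. Its 20S core is a barrel in which outer alpha rings gate the entry and inner beta rings hold the proteolytic sites, and its 19S cap binds the ubiquitin chain, removes it, and unfolds and threads the substrate by ATP hydrolysis. In immune tissue, interferon gamma induces 3 alternative catalytic subunits that replace those of the standard core in newly built particles, which alters the peptides available for MHC class I.

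The arrays measured spleen cell RNA from a mouse model of acute graft-versus-host disease, in which the costimulatory pair ICOS and ICOSL was blocked. All recipients were female C57BL/6 mice of 9 to 12 weeks that had been irradiated with 10.0 Gy and given donor splenocytes (after 4 to 6 h in the allogeneic groups), and spleens were taken on day 4. The syngeneic group (C57BL/6 donors) had 1 array. Recipients of C3H/HeN splenocytes formed the other groups of 2 arrays each: those given control rat IgG, called isotype here, and those given anti-ICOSL antibody from day 0 or from day 3, with a first dose of 500 µg and further doses of 200 µg every other day. On that schedule, the mice treated from day 3 had received the first dose alone when spleens were taken on day 4. The labels do not say on which day the control IgG was started. They describe combined RNA of the allogeneic mice put onto 2 arrays, so the spread within a group may be technical, and every p-value measures only the spread between arrays. In the comparison with the syngeneic array, the strain of the donor cells cannot be told apart from the response to an MHC mismatch. No antibody is recorded for the syngeneic group, so the control IgG itself cannot be told apart from these either. The fit gave that single array the spread of the other groups.

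The deposited values are MAS5 signals, a scaled brightness per probe set, and the 7 arrays had the same trimmed mean of 500.2, medians between 145.4 and 174.5 and Gapdh 3′ to 5′ ratios of 0.957 on the syngeneic array and 0.767 to 0.865 on the others. The cell mixture differed widely. The summed signal of 8 red pulp macrophage markers was 60190 on the syngeneic array and 6710.1 to 12523 on the allogeneic arrays, that of 5 of 6 B cell markers was 21302 against 9362 to 14857, and that of 6 neutrophil markers 33537 against 8367 to 11638. The summed signal of 7 of 8 T cell markers was 21004 against 25305 to 32988, and that of 11 of 12 proliferation genes 32141 against 53146 to 56208. For 6 of 7 erythroid markers the sum was 20432 against 4641 to 7161. No marker was at 0 on any array. In such bulk RNA, fewer cells of a type and less RNA per cell cannot be told apart, and the part of these shifts in the values below was not tested.

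Of the 36 genes, 35 were bright enough to be tested, with the mean signal of some group at or above the 40th percentile of all signals. Psma8, an alpha subunit known from testis, was not: its signals were 12.6 in syngeneic spleen, 20.1 and 6.18 under control IgG, 5.79 and 38.2 under anti-ICOSL from day 0, and 7.26 and 7.16 under anti-ICOSL from day 3. All other members were measured well above that, and their duplicate arrays lay close together. The median absolute log2 difference between duplicates was 0.11 for members and 0.24 for all 15372 tested probe sets under control IgG, 0.15 and 0.22 under anti-ICOSL from day 0, and 0.09 and 0.19 from day 3. No member differed 2-fold between duplicates. The ATPase gene Psmc5 came nearest, with 3278 and 1725 on the isotype arrays.

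Against the syngeneic array, most proteasome genes had higher signals in the allogeneic spleen with control IgG. The log2 change, computed on signal plus 50, was above 0 for 30 of 35 members, where 49.3% of all tested probe sets were above 0. Both isotype arrays exceeded the syngeneic array for 27 members (38% of all tested probe sets) and lay below it for 4 members, Psmd4, Psmd5, Psmd9 and Psmd12 (38.8% of all). The median change was 0.35 over the members, a 1.28-fold difference, and -0.01 over all tested probe sets. The standard errors of the fit had a median of 0.21. The count of 30 members above 0 was 27 without the first isotype array, as Psmc5, Psmd7 and Psmd10 then lay below 0, and 31 without the other. In limma's test, with p-values adjusted over all tested probe sets, 1 member rose (2.49% of all tested probe sets rose) and 0 fell (4.12% of all fell), while 3 members had an unadjusted p below 0.05, a rule that 23% of all tested probe sets met.

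**Figure D1:**
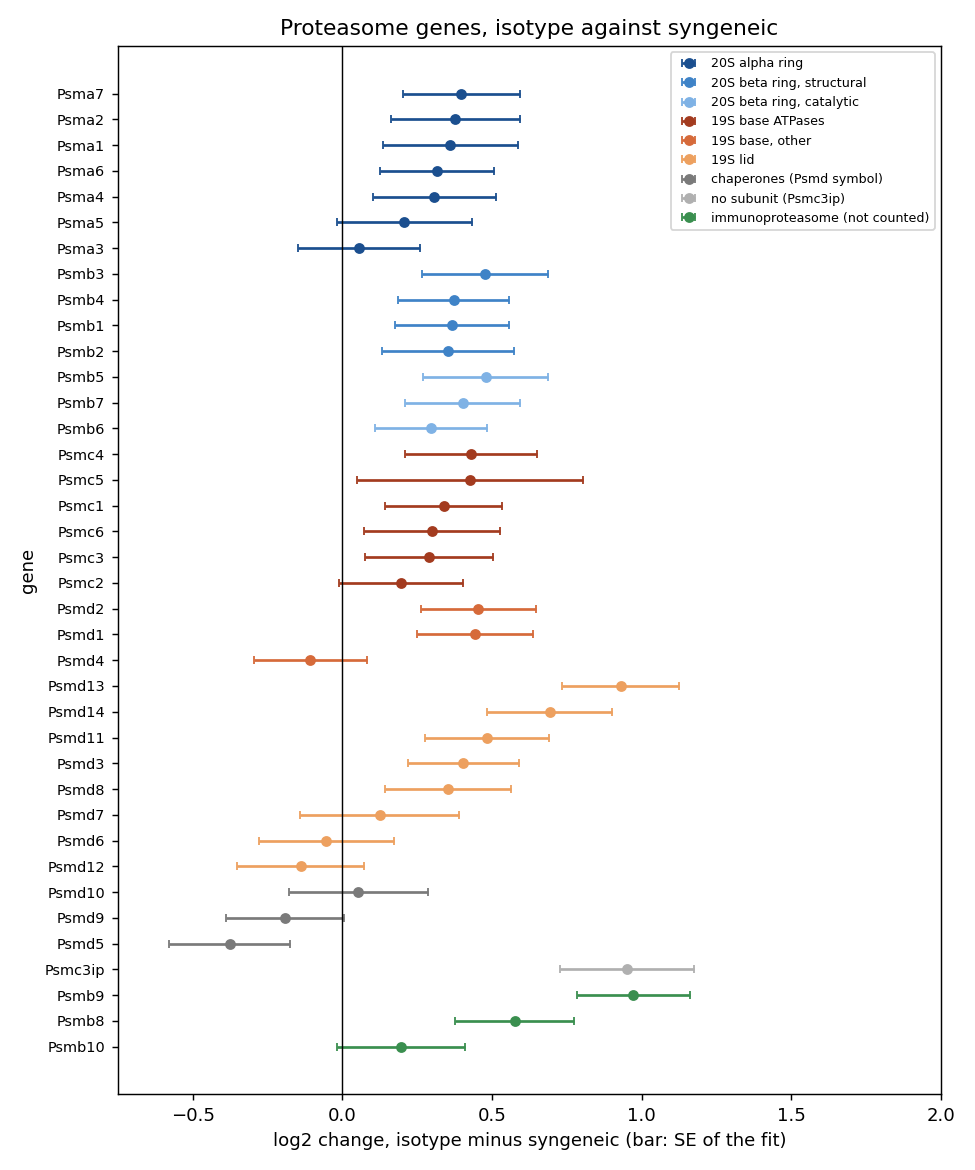
Log2 change of each tested proteasome gene between the isotype arrays (n = 2) and the syngeneic array (n = 1), with the standard error of the fit as bars and colours for the role in the particle. All 14 genes of the 20S core lie to the right of 0, and Psmd13 at 0.93 is the member that passed the test.

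The member that rose was Psmd13, a subunit of the lid, the part of the cap that holds the deubiquitinating site. Its signal was 979 in syngeneic spleen, 1909.7 and 1911 under control IgG, 1710.1 and 1902 under anti-ICOSL from day 0, and 1819 and 1952 under anti-ICOSL from day 3. The syngeneic array stood alone below all 6 allogeneic arrays. The change between isotype and syngeneic was 0.93 ± 0.19 (SE, n = 2 against 1), or 1.90-fold, with an adjusted p of 0.0435 from limma. The call was lost when any 1 of the allogeneic arrays was left out (adjusted p between 0.0759 and 0.114), and over all alternative settings the adjusted p ran from 0.00335 to 0.123. A further probe set of Psmd13 gave 631 on the syngeneic array and between 823 and 1003 on the other 6, a change of 0.56 with an adjusted p of 0.143.

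Psmd14, the deubiquitinase of the lid, gave 4023 in syngeneic spleen, 6035 and 7064 under control IgG, 5045 and 5146 under anti-ICOSL from day 0, and 4622 and 5138 under anti-ICOSL from day 3. The isotype arrays were the highest, the 4 anti-ICOSL arrays were intermediate, and no groups overlapped except day 0 with day 3. The change against syngeneic was 0.69 ± 0.21 (SE), with an adjusted p of 0.113 in limma. Psmc3ip, the recombination factor counted only through its symbol, gave 166 in syngeneic spleen, 318 and 425 under control IgG, 334 and 322 under anti-ICOSL from day 0, and 275 and 268 under anti-ICOSL from day 3. Its change was 0.95 ± 0.22 (SE), with an adjusted p of 0.0617. Every allogeneic array again exceeded the syngeneic one, at the lowest signal of the tested members.

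**Figure D2:**
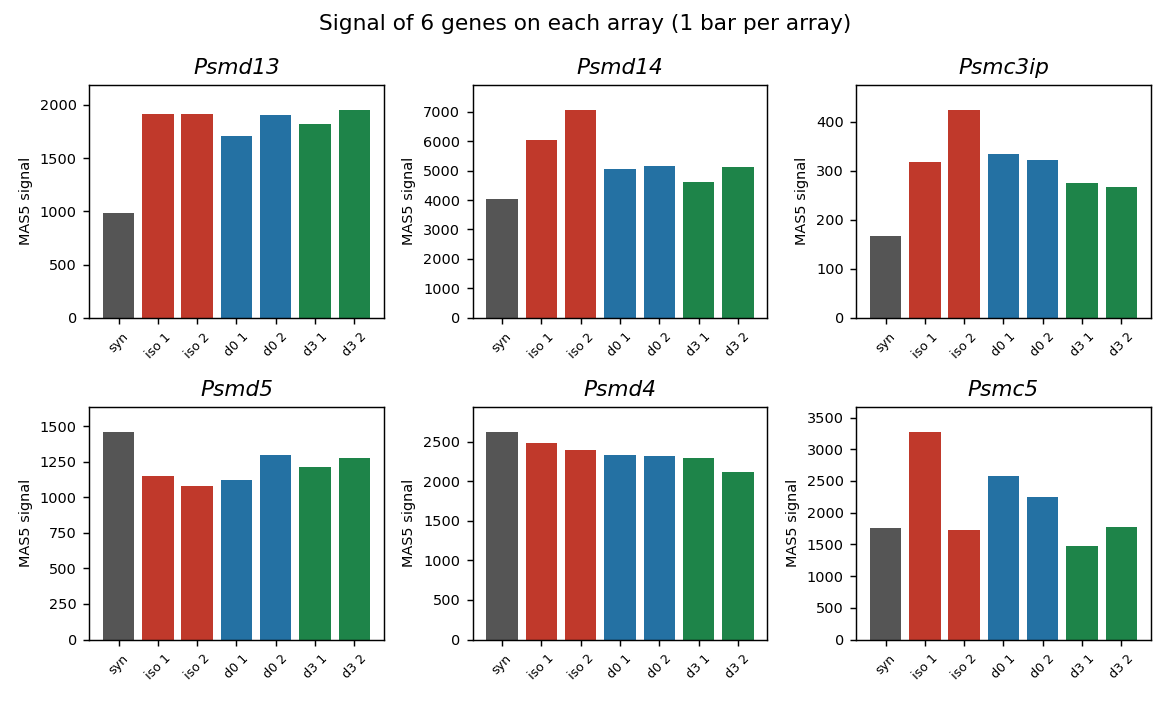
MAS5 signal (linear axis from 0) of 6 proteasome genes on each of the 7 arrays, with 1 bar per array (syn, syngeneic; iso, isotype; d0 and d3, anti-ICOSL from day 0 and day 3). Psmd13, Psmd14 and Psmc3ip are lowest on the syngeneic array, Psmd5 and Psmd4 are highest there, and the isotype arrays of Psmc5 stand at 3278 and 1725.

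Within the 20S core, all 14 tested genes had both isotype arrays above the syngeneic array, with changes between 0.06 for Psma3 and 0.48 for Psmb5 and a median of 0.36. None passed the test in either direction: the adjusted p lay between 0.241 and 0.904, and no core gene had an unadjusted p below 0.05. The alpha ring genes Psma1 to Psma7 had a median change of 0.32. Psma3 was the least shifted of them, with 4756 in syngeneic spleen, 5006 and 4883 under control IgG, 5385 and 4894 under anti-ICOSL from day 0, and 4940 and 4283 under anti-ICOSL from day 3. Its syngeneic value thus lay among the others, and under quantile normalization its change and no other core gene's turned below 0. The structural beta genes Psmb1 to Psmb4 had a median of 0.37.

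The 3 catalytic genes of the standard core had a median of 0.40. Psmb5, which carries the chymotrypsin-like site, gave 2828 in syngeneic spleen, 4166 and 3765 under control IgG, 3296 and 3827 under anti-ICOSL from day 0, and 3512 and 3851 under anti-ICOSL from day 3. Psmb6, with the caspase-like site, gave 2042 in syngeneic spleen, 2505 and 2534 under control IgG, 2562 and 2458 under anti-ICOSL from day 0, and 2559 and 2495 under anti-ICOSL from day 3. Psmb7, with the trypsin-like site, gave 7090.0 in syngeneic spleen, 9391 and 9378 under control IgG, 7839 and 8691 under anti-ICOSL from day 0, and 9265 and 9450.2 under anti-ICOSL from day 3. For all of them the syngeneic array was the lowest of the 7. The isotype changes were 0.48 ± 0.21 for Psmb5, 0.30 ± 0.19 for Psmb6 and 0.40 ± 0.19 for Psmb7 (SE).

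These genes were set beside the inducible subunits that replace them. Psmb9, the counterpart of Psmb6, gave 3188 in syngeneic spleen, 6329 and 6267 under control IgG, 6395 and 5914 under anti-ICOSL from day 0, and 5595 and 5583 under anti-ICOSL from day 3. It rose by 0.97 ± 0.19 (SE), with an adjusted p of 0.0351 in limma. Psmb8, the counterpart of Psmb5, gave 4585 in syngeneic spleen, 6997 and 6717 under control IgG, 6043 and 6991 under anti-ICOSL from day 0, and 6277 and 6295 under anti-ICOSL from day 3, a change of 0.58 with an adjusted p of 0.154. Psmb10, the counterpart of Psmb7, gave 2727 in syngeneic spleen, 3134 and 3124 under control IgG, 3469.7 and 4293 under anti-ICOSL from day 0, and 3918 and 4157 under anti-ICOSL from day 3, a change of 0.20 with an adjusted p of 0.644. The log2 signal of the inducible subunit minus that of its constitutive counterpart was then followed over the arrays, set to 0 on the syngeneic array. For Psmb9 against Psmb6 it was 0.69 and 0.66 under control IgG, 0.67 and 0.62 under anti-ICOSL from day 0, and 0.48 and 0.52 under anti-ICOSL from day 3. For Psmb8 against Psmb5 it stayed between 0.01 and 0.18 on the 6 allogeneic arrays. For Psmb10 against Psmb7 it was -0.21 on both isotype arrays and between 0.13 and 0.35 on the 4 anti-ICOSL arrays, so that the isotype arrays lay below and the anti-ICOSL arrays above the syngeneic one. No test was made of these differences.

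**Figure D3:**
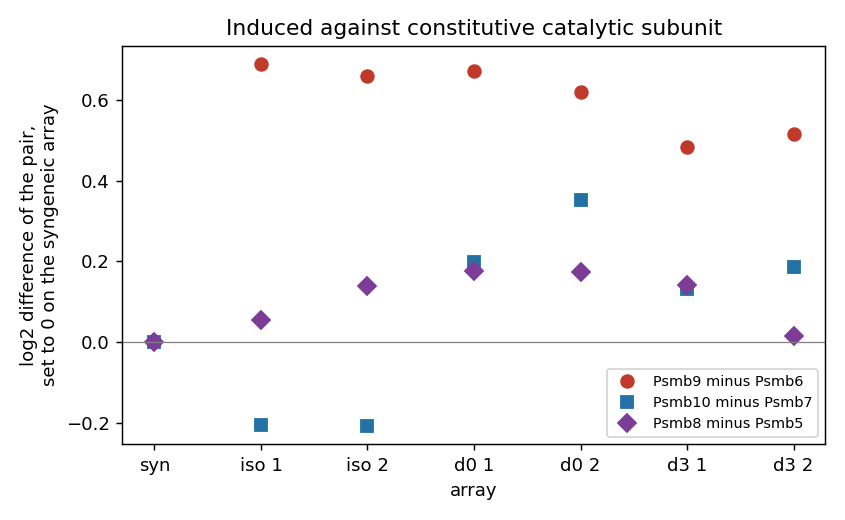
Log2 difference between each inducible catalytic subunit and the constitutive subunit that it replaces, on each of the 7 arrays and set to 0 on the syngeneic array. Psmb9 minus Psmb6 lies between 0.48 and 0.69 on the allogeneic arrays, and Psmb10 minus Psmb7 is at -0.21 on both isotype arrays.

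Within the 19S cap, 16 of 21 genes had a change above 0, with a median of 0.34 and a range from -0.38 to 0.95. Without Psmc3ip and the chaperones, the median of the remaining 17 subunits was 0.35. The 6 ATPases that form the unfolding ring (Psmc1 to Psmc6) were all above 0, with a median of 0.32. For Psmc5 the isotype arrays lay on either side of the syngeneic array, and its change was 0.43 ± 0.38 (SE) with both and -0.03 without the first isotype array. Of the other subunits of the base, Psmd1 changed by 0.44 ± 0.19 and Psmd2, the docking platform for proteins that deliver substrates, by 0.45 ± 0.19 (SE), neither past the test. Psmd4, a ubiquitin receptor, was one of the 2 members below the syngeneic array on all 6 allogeneic arrays, with 2629 in syngeneic spleen, 2479 and 2395 under control IgG, 2332 and 2322 under anti-ICOSL from day 0, and 2295 and 2124 under anti-ICOSL from day 3. Its change of -0.11 was smaller than its standard error of 0.19, and a further probe set of Psmd4 gave 0.42 in the other direction.

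Of the 8 lid genes, 6 were above 0 with a median over all 8 of 0.38. Psmd12, a scaffold subunit of the lid, gave 2047 in syngeneic spleen, 1836 and 1872 under control IgG, 1669.9 and 1931 under anti-ICOSL from day 0, and 2098 and 1779 under anti-ICOSL from day 3, with a change of -0.14. Its day 3 arrays lay on either side of the syngeneic array. Psmd6, another lid subunit, differed between its probe sets. The probe set counted here gave 3046 in syngeneic spleen and 3097 and 2778 under control IgG, a change of -0.05. A dimmer one gave 439 in syngeneic spleen, 54.3 and 93.6 under control IgG, 119 and 51.6 under anti-ICOSL from day 0, and 47.0 and 35.8 under anti-ICOSL from day 3, and fell by 2.00 on the log2 scale (SE 0.35, adjusted p of 0.0267 in limma). Of the 21 further tested probe sets of members, this was the 1 that passed, and 12 of the 21 had the sign of the counted probe set.

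Of the 3 chaperones, 2 were below 0, unlike most subunits. Psmd5 gave 1461 in syngeneic spleen, 1149.9 and 1079 under control IgG, 1123 and 1300.2 under anti-ICOSL from day 0, and 1209 and 1273 under anti-ICOSL from day 3. It was the other member with all 6 allogeneic arrays below the syngeneic one, and its change was -0.38 ± 0.20 (SE, adjusted p of 0.328 in limma). Psmd9 gave 476 in syngeneic spleen, 435 and 387 under control IgG, 410.4 and 451 under anti-ICOSL from day 0, and 499 and 517 under anti-ICOSL from day 3, so the anti-ICOSL groups fell on both sides of the syngeneic array. Its change was -0.19, and it turned to 0.07 when its probe sets were averaged. Psmd10 was at 0.05.

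The deviations described next differed between core and cap by at most 0.08 in the mean and 0.11 in the median on any array. The deviation of each gene from its own mean over the 7 arrays had a median on the syngeneic array of -0.29 in the core and -0.25 in the cap, and between 0.02 and 0.08 (core) and between -0.05 and 0.10 (cap) on the allogeneic arrays. The mean deviation of core minus cap genes was -0.06 in syngeneic spleen, -0.03 and 0.02 under control IgG, 0.01 and -0.02 under anti-ICOSL from day 0, and 0.00 and 0.08 under anti-ICOSL from day 3. The syngeneic value was the lowest of these means, by a margin smaller than the gap between the day 3 arrays. Without Psmc3ip and the chaperones it was -0.02, and an isotype array (-0.04) and a day 0 array (-0.03) lay lower. In all, 25 of 35 members had every one of the 6 allogeneic arrays above the syngeneic array (26% of all tested probe sets), 12 of the 14 core genes and 13 of the 21 cap genes. The core exceptions were Psma3 and Psmb2. All 6 lay below it for Psmd4 and Psmd5 alone among the members (26.4% of all). The count of 25 was 23 under quantile normalization and 24 under median centring.

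**Figure D4:**
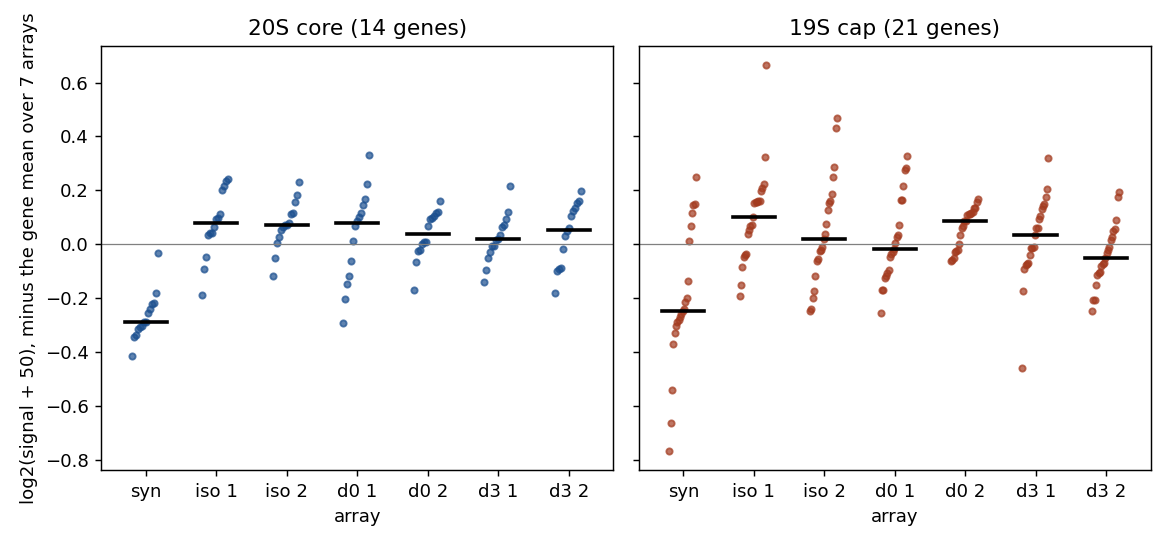
Deviation of log2(signal + 50) from the mean of the gene over all 7 arrays, for the 14 tested genes of the 20S core and the 21 genes of the 19S cap; each point is 1 gene, sorted by value within an array, and the black bar is the median. The medians on the syngeneic array are -0.29 and -0.25, below those of all 6 allogeneic arrays.

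The promoters of the members were examined for shared letters, since most members shifted the same way against the syngeneic array. RefSeq promoters (GRCm38.p6) of 250 bases upstream of the start were at hand for 29 of the 36 members, of 27025 genes in all, and each motif was searched on both strands. The core of the antioxidant response element, TGACNNNGC, to which Nrf1 and Nrf2 (the products of Nfe2l1 and Nfe2l2) are known to bind, was found in 5 of the 29 (17.2%) against 11.5% of all genes. All 5 are shown with the match in capitals, on the strand of the gene: Psmb5 at chr14:54618014-54618062 (minus strand), Psmb6 at chr11:70525328-70525356 (plus), Psmc6 at chr14:45329577-45329625 (plus), Psmd9 at chr5:123228139-123228187 (plus) and Psmd12 at chr11:107479278-107479309 (plus). In Psmc6 and Psmd12 the motif reads on the opposite strand, and in Psmd9 it shares bases with a GC box.
Psmb5: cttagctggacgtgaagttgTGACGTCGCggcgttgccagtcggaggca
Psmb6: cagaggcggactaaagagagTGACGGAGC
Psmc6: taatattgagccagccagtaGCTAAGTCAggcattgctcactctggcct
Psmd9: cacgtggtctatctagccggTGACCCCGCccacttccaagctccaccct
Psmd12: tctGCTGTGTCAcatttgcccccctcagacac
The isotype changes of these 5 genes ran from -0.19 (Psmd9) to 0.48 (Psmb5), with a median of 0.30 against 0.37 for the other 24. Nfe2l2 itself fell in the same comparison, from 1489.8 in syngeneic spleen to 638 and 528 under control IgG. Its change was -1.29 (adjusted p of 0.0461 in limma), and that of Nfe2l1 was -0.02. Mafg, from the same list of 4 tested factors, was the 1 above 0, at 0.50 (adjusted p of 0.296 in limma). Whether these factors act on the members was not tested.

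A site for ETS factors, CCGGAAG, was more frequent among the members: 10 of the 29 (34.5%) held it, against 7.83% of all genes. It is shown for 5 genes on both sides of 0: Psmd2 at chr16:20651606-20651651 (plus strand, change of 0.45), Psmd11 at chr11:80428584-80428614 (plus, 0.48), Psmc1 at chr12:100110154-100110200 (plus, 0.34), Psmd4 at chr3:95042713-95042759 (minus, -0.11) and Psmd6 at chr14:14120964-14121010 (minus, -0.05). These changes are those of the counted probe sets, and the further tested probe sets of Psmd11 ran from -0.88 to 0.48. The strand given is that of the gene, and in Psmd2, Psmd11 and Psmc1 the motif reads on the opposite strand.
Psmd2: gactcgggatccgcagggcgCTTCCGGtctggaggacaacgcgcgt
Psmd11: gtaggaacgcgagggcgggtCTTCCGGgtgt
Psmc1: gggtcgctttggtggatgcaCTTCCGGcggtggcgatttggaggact
Psmd4: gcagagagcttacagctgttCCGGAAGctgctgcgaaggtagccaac
Psmd6: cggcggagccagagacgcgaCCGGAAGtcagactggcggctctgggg
The members with the site had a median change of 0.31, and the 19 without it 0.37. The GC box GGGCGG stood in 17 members (58.6%, against 35.4% of genes), CCAAT in 12 (41.4% against 37.5%) and TATAAA in 3 (10.3% against 14.3%). The share of all genes counts genes of any signal, and genes as bright as the members were not set apart. A match describes the letters of this window and not a bound site.

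Genes that work with the particle were looked at in the same comparison. Of the 5 tested chaperones that assemble the core, 3 were above 0 and 0 passed, with Pomp, which helps to close the barrel, at 0.53 (adjusted p of 0.172 in limma) and Psmg4 at 0.37. Of 4 activators and inhibitors, 3 were above 0 and 0 passed. Psme4 stood at 0.32 and the inhibitor Psmf1 at -0.18. Of 4 further cap proteins and deubiquitinases, all were above 0 and 0 passed, with Ube3c at 0.35. Among 6 ubiquitin and shuttle genes, 4 were above 0 and 0 passed, with Nploc4, a cofactor of the segregase Vcp, at 0.67 (adjusted p of 0.108). Pomp and Nploc4 were the genes of these 4 lists with an unadjusted p below 0.05. The proliferation list, whose summed signal differs between the groups as given above, had 11 of 11 genes above 0, and 4 of them rose: Cdk1, Plk1, Aurkb and Rrm2.

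With anti-ICOSL antibody from day 0, the proteasome genes differed from isotype by small amounts in both directions. No member passed limma's test in either direction, as no probe set of the array did (0% called), and 0 members had an unadjusted p below 0.05, against 7.18% of all tested probe sets. Of the 35 members, 16 were above 0 (52.7% of all), with medians of -0.03 in the core and 0.01 in the cap. The 2 arrays of each group did not overlap for 5 members in the higher direction (19.4% of all) and 11 in the lower (16.2%). The 6 ATPases were all above 0, with a median of 0.07, and this depended on single arrays. Psmc5 lay below 0 under median centring and without the first day 0 array, Psmc5 (-0.43) and Psmc1 without the second isotype array, and Psmc6 (-0.11) without the first. The count of 16 members above 0 was 11 under median centring and 18 under quantile normalization.

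The largest differences upward from isotype were those of Psmc4, Psma1 and Psma4. Psmc4, an ATPase, gave 961 in syngeneic spleen, 1236 and 1394 under control IgG, 1728 and 1544 under anti-ICOSL from day 0, and 1787 and 1472 under anti-ICOSL from day 3, with differences of 0.31 from day 0 and 0.30 from day 3. Both isotype arrays lay below all 4 anti-ICOSL arrays, but a dimmer probe set ran the other way, and the mean of both gave -0.10 and -0.14. Psma1, of the alpha ring, gave 1744 in syngeneic spleen, 2049 and 2479.6 under control IgG, 2740.0 and 2621 under anti-ICOSL from day 0, and 2257 and 2696 under anti-ICOSL from day 3. Psma4, also of the alpha ring, gave 4911 in syngeneic spleen, 6290.4 and 5891 under control IgG, 7709 and 6572 under anti-ICOSL from day 0, and 6081 and 5702 under anti-ICOSL from day 3. For Psma1 and Psma4, the day 0 arrays stood clear of the isotype arrays and the day 3 arrays did not.

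The largest differences downward were those of Psmd14 (-0.35), Psmd10 (-0.34) and Psmb2 (-0.29). Psmd10, the chaperone also known as gankyrin, gave 405 in syngeneic spleen, 464 and 383 under control IgG, 294 and 352 under anti-ICOSL from day 0, and 357 and 296 under anti-ICOSL from day 3. Its 4 anti-ICOSL arrays were the lowest of the 7. Psmb2, a structural beta subunit, gave 2634 in syngeneic spleen, 3633 and 3141 under control IgG, 2509 and 3037 under anti-ICOSL from day 0, and 3352 and 3434 under anti-ICOSL from day 3, so that one day 0 array lay below the syngeneic array.

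Anti-ICOSL antibody from day 3 was compared with the same 2 isotype arrays, so the 2 comparisons share their controls. Again 0 members passed in limma in either direction (0% of all probe sets), and 15 were above 0 (54.3% of all), with medians of -0.03 in the core and -0.06 in the cap. The count of 15 depended on the scaling, with 5 under median centring and 18 under quantile normalization. Groups did not overlap for 4 members in the higher direction (24.3% of all) and 13 in the lower (18.8%). Psmd14 was the 1 member with an unadjusted p below 0.05 (10.2% of all), at -0.42 ± 0.17 (SE) and an adjusted p of 0.476. Psmc5 had the largest difference, -0.55 ± 0.31 (SE, adjusted p of 0.583): it gave 1759.6 in syngeneic spleen, 3278 and 1725 under control IgG, 2586 and 2253 under anti-ICOSL from day 0, and 1475 and 1770.2 under anti-ICOSL from day 3. Its lower isotype array lay between the day 3 arrays, and the difference was -0.09 without the first isotype array. Psmc3ip followed at -0.38. In the other direction stood Psmc4, Psmd9 at 0.28 and Psma5, of the alpha ring, at 0.18. The further tested probe sets of Psmd9 and Psma5 ran the other way, each at -0.14. Psma5 gave 3455 in syngeneic spleen, 4304 and 3708 under control IgG, 3485 and 4307 under anti-ICOSL from day 0, and 4679 and 4417 under anti-ICOSL from day 3.

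**Figure D5:**
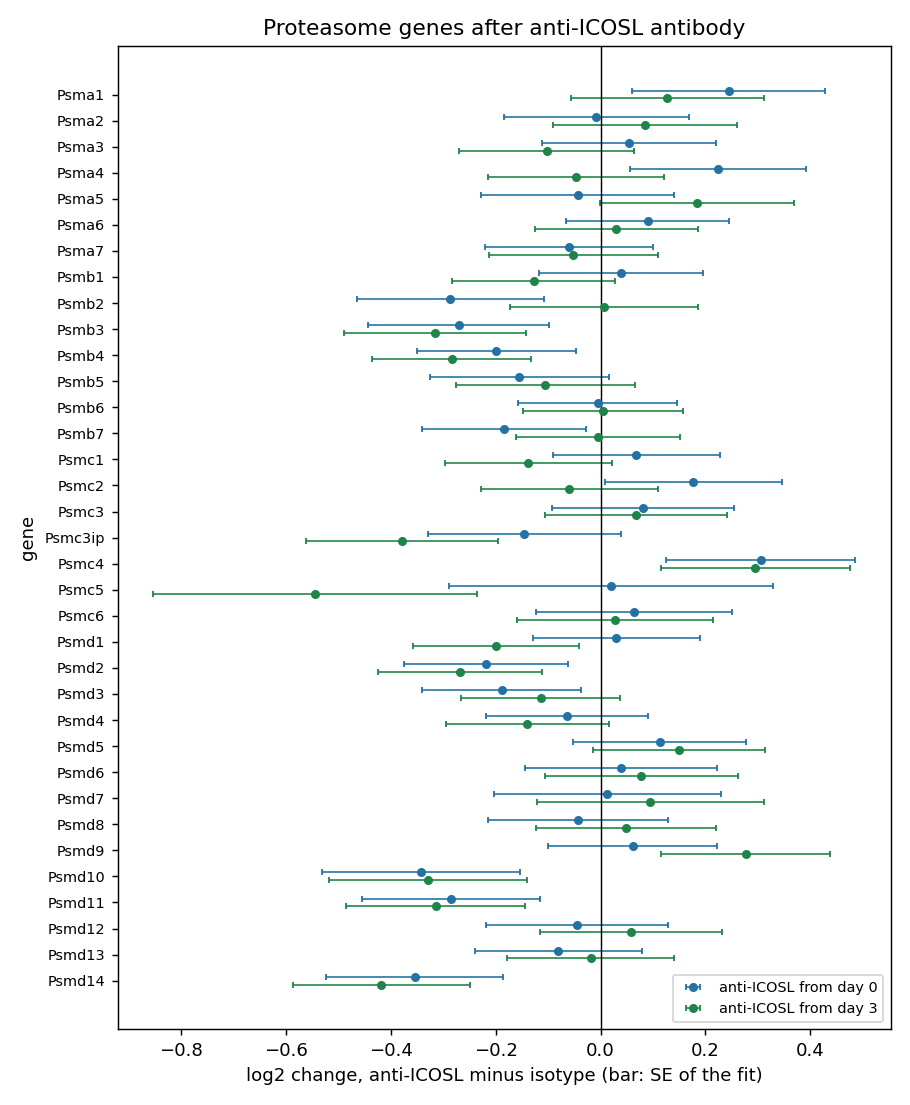
Log2 change of each tested proteasome gene between anti-ICOSL arrays from day 0 (blue, n = 2) or day 3 (green, n = 2) and the 2 isotype arrays, which both comparisons share; bars are standard errors of the fit. None passed the test, and the values lie between -0.55 (Psmc5, day 3) and 0.31 (Psmc4, day 0).

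Taking the 4 anti-ICOSL arrays at once, both isotype arrays exceeded every one of them for 8 members, against 7.94% of all tested probe sets: Psmb3 and Psmb4 of the core, the base subunits Psmd2 and Psmd4, the lid subunits Psmd3, Psmd11 and Psmd14, and Psmd10. The count was 8 under quantile normalization and 12 under median centring. For Psmd11, a lid subunit that contacts the alpha ring, the signals were 4734.5 in syngeneic spleen, 6438 and 6845 under control IgG, 5494 and 5381 under anti-ICOSL from day 0, and 5845 and 4856 under anti-ICOSL from day 3. For Psmb4 they were 4556 in syngeneic spleen, 5947 and 5875 under control IgG, 5209.9 and 5076 under anti-ICOSL from day 0, and 4828 and 4860.4 under anti-ICOSL from day 3. In both, with the counted probe sets, the anti-ICOSL arrays stood between the syngeneic and the isotype arrays. A further probe set of Psmb4 gave 513 and 761 under control IgG and 632 and 650 under anti-ICOSL from day 0, which overlapped. The further probe sets of Psmd4 overlapped too, the brighter with 889 and 1002 under control IgG and 832 to 1028 on the anti-ICOSL arrays. That of Psmb3 kept both isotype arrays above, with 3331 and 3011 against 2178 to 2587. A further probe set of Psmd11 kept both isotype arrays above, with 2619.6 and 2461 under control IgG and 2137 to 2361 on the anti-ICOSL arrays. Its syngeneic value of 2457 lay above all 4 anti-ICOSL arrays. The other further probe sets of Psmd11 did not keep both isotype arrays above. Cell markers separated the same arrays: the summed signal was 13170.0 to 14857 on the isotype and 9362 to 10483 on the anti-ICOSL arrays for B cells, 6710.1 to 7165 and 9330.0 to 12523 for red pulp macrophages, and 995 to 1154 and 1372 to 1604 for 3 of 4 natural killer cell markers. The sum of 11 of 12 proliferation genes separated them as well, at 53146 to 53487 on the isotype and 53610.5 to 56208 on the anti-ICOSL arrays. The T cell sums overlapped, at 27535 to 32988 and 25305 to 27567, and the part of the marker shifts in these member values was not tested. The reverse order, both isotype arrays below all 4, was that of Psmc4 alone among the members (10.2% of all), and of no member under median centring. Among genes outside the particle, the cap-bound deubiquitinase Usp14 stood at -0.66 from day 0 and -0.67 from day 3, and Uchl5, another, at 0.42 and 0.47, and the lowest adjusted p of these values was 0.446 in limma.

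Between the start days, 0 members differed in limma's test in either direction (0% of all probe sets), and 0 had an unadjusted p below 0.05 (6.79% of all). Day 0 exceeded day 3 for 19 of 35 members (47.8% of all; 25 members under median centring and 18 under quantile normalization), and groups did not overlap for 10 members with day 0 higher (18.6% of all) and 5 with day 3 higher (20.4%). The 6 ATPases were all higher from day 0, with a median of 0.12, but Psmc3 and Psmc4 turned below 0 under quantile normalization, and with 1 day 0 or day 3 array left out between 3 and 6 of them remained above 0. The largest difference was that of Psmc5, 0.56 ± 0.31 (SE, adjusted p of 0.781 in limma). Psmc2, another ATPase, differed by 0.24: it gave 2976 in syngeneic spleen, 3556 and 3284 under control IgG, 4181 and 3582 under anti-ICOSL from day 0, and 3393 and 3166 under anti-ICOSL from day 3. Psma4 differed by 0.27. Higher from day 3 were Psmb2 (-0.29, as day 0 minus day 3), Psma5 (-0.23) and Psmd9 (-0.22), and Psma5 turned to 0.06 when its probe sets were averaged. Cell markers also separated the start days. For 6 of 7 erythroid markers the sum was 4641 to 4913 from day 0 and 6892 to 7161 from day 3. It was 11865 to 12523 and 9330.0 to 9858 for red pulp macrophages, and 11121 to 11638 and 8507 to 8908 for neutrophils. For 4 plasma cell markers it was 17337 to 17569.5 and 18731 to 20369. The T cell, B cell, natural killer cell and proliferation sums overlapped. The part of these shifts in the member values was not tested.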

How the data were processed

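Spleen cell RNA was measured on 7 Affymetrix arrays. The deposited values are linear signal intensity from MAS5, a tool named in the submitters' processing notes without a version. The trimmed means were equal, so a change is relative to the rest of the array. From these, log2(signal + 50) was computed, which understates changes of dim probe sets. Of 22690 probe sets, 64 controls were dropped, and 15372 were tested because a group mean was at or above the 40th percentile of signals. One model over all 7 arrays was fitted with limma 3.58.1 (R 4.3.3), with 3 residual and 3.36 prior degrees of freedom, two-sided p-values, Benjamini-Hochberg adjustment and a threshold of 0.05. The procedure was tested on simulated data. Genes named with all signals are members that passed, the 3 largest differences in each direction per comparison and the catalytic subunits with their counterparts; Psma3, Psma8, Psmb4, Psmd4, Psmd6 and Psmd11 were added after their values were seen. Of other lists, genes that passed and up to 2 others were named. Members and lists were chosen with earlier results of these data known. Replicate numbers did not pair arrays (correlations of deviations of -0.01, 0.07 and 0.04). Alternatives were other pseudocounts, filters, scalings, probe set means, a replicate block, the compared groups alone, limma's trend and robust options, and each array left out in turn. Protein sequences and Psme2 were not analysed here.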

Additional observations from a re-analysis of the deposited data

How the results depend on the processing

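Against the syngeneic array, 1 member rose. The count was 0 in the fit of the compared groups alone, with no filter on low signals, with a pseudocount of 16, and with the replicate number as a block. It was 3 with the filter at the 60th percentile and with trend and robust options (Psmc3ip, Psmd13 and Psmd14), and 2 with probe set means and under median centring (Psmc3ip and Psmd13). It was 0 whichever of the 6 allogeneic arrays was left out. Over all tested probe sets, 383 of 15372 rose in the main fit. This number was 651 of 10382 with the filter at the 60th percentile and 839 with trend and robust options. It was 286 of 8962 genes with probe set means and 431 under median centring. It was 150 of 14585 with the compared groups alone and 175 of 22626 with no filter. With a pseudocount of 16 it was 316, and 264 with the block. Members that fell numbered 1 (Psmd6) with probe set means, where 742 genes passed in either direction, and 0 in the other settings. With limma on the compared groups alone, 568 probe sets passed in all, against 1017. The cause of these changes was not tested.

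The median change of the core against syngeneic, 0.36, was 0.45 under median centring, 0.29 under quantile normalization and 0.36 to 0.37 with 1 array left out. That of the cap, 0.34, was 0.43 under median centring, 0.20 with probe set means and 0.25 (without the first isotype array) to 0.36 with 1 left out. Median centring moved the median of all probe sets from -0.01 to 0.08. For day 0 against isotype, the core median of -0.03 was 0.0043 with probe set means, 0.0016 under quantile normalization, -0.072 under median centring and -0.055 to -0.015 with 1 left out, and the cap median ran from -0.094 to 0.042 with 1 left out. For day 3 against isotype, the core median was -0.13 under median centring, 0.020 under quantile normalization and -0.060 to -0.0062 with 1 left out, and the cap median was -0.16 under median centring, 0.0084 with probe set means and -0.13 to -0.049 with 1 left out. Between the start days, the core median was 0.048 with probe set means, 0.072 under median centring, 0.045 with no filter and -0.013 to 0.062 with 1 left out, and the cap median ran from -0.061 to 0.10 with 1 left out.

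With probe set means, Psmd9 turned to 0.066 against syngeneic, Psmc4 to -0.10 (day 0) and -0.14 (day 3) against isotype, and Psma5 to 0.063 between the start days. No member passed in a comparison among the 3 antibody groups under any of these settings. The replicate block gave Psmd13 an adjusted p of 0.0674, within the range of 0.00335 to 0.123 over its alternatives, and changed no other call. Signal over background limits Psma8 and Psmc3ip, and groups of 2 arrays or 1 limit every value.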
